A study of Homo sapiens with 6 samples.

Results

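The genes described here are the 40 members of the aminoacyl-tRNA synthetase set that was listed by symbol, out of 27968 genes in the deposited gene tables. They comprise 19 genes for cytosolic enzymes or their subunits, 16 genes for mitochondrial enzymes, 2 genes (GARS and KARS) that serve both compartments, and 3 genes (AIMP1, AIMP2 and EEF1E1) for scaffold proteins that hold cytosolic synthetases together. All 40 symbols were found in the tables and all 40 passed the filter on low counts, so no member was lost. RNA was sequenced from T47D, an established human estrogen receptor-positive luminal breast cancer line, 48 hours after lipid transfection of a control siRNA (3 libraries) or of an siRNA that the labels call specific to HOTAIR-N (3 libraries). HOTAIR is a long noncoding RNA of the HOXC cluster, and which form the name HOTAIR-N means is unknown from the labels. Both groups are the same line in RPMI medium with 10% serum, each library is an independent transfection, and each group stands for 1 siRNA as far as the labels say. The comparison asks how the level of each gene differs after the HOTAIR-N siRNA.

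Aminoacyl-tRNA synthetases join each amino acid to its tRNAs and so set which amino acid a codon receives. Human cells use nuclear genes for separate cytosolic and mitochondrial enzymes for most amino acids, and several cytosolic enzymes sit in a multisynthetase complex built on scaffold proteins. Many cytosolic synthetase genes are targets of ATF4, the transcription factor of the amino acid response, and WARS, the cytosolic tryptophanyl-tRNA synthetase, is known as a gene induced by interferon gamma.

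The libraries held 31777001 to 36707169 expected counts, of which the 40 members took 0.650% to 0.678%. HOTAIR fell from 540 to 581 counts in the control libraries to 185 to 206 with the HOTAIR-N siRNA. Luminal markers were abundant in both groups, although ESR1 fell to 32.1% and PGR to 36.4% of control and 6 of the 8 luminal markers were lower. Of 11 markers of immune, endothelial, stromal and basal cells, 8 were too low to be tested, and COL1A1 was the highest at 29.4 ± 2.19 CPM (counts scaled to library size) with the control siRNA and 24.6 ± 2.11 CPM with the HOTAIR-N siRNA (SD, n = 3). HOTAIR-N siRNA replicate 3 and control siRNA replicate 2 each departed from their groups, and partly in the same genes (r = 0.22 between their deviations across 14919 genes, which are not independent), and results that rest on them are also given without them. In bulk RNA, fewer cells that express a gene and less RNA per cell cannot be told apart.

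One sequence feature is shown first because the results return to it. The letters TGATGNAA form the core of the CEBP-ATF response element, to which ATF4 binds with its partners. It was searched on both strands of the 300-base promoter windows of RefSeq (GRCh38.p14, 250 bases before to 50 after the gene start), in which 33 of the 40 members were found. The element was present in 7 of these 33, against 3.62% of all 35116 windows. Each site is printed here with 11 bases on either side, 5′ to 3′ on the strand of the gene, with the element in capitals.
AARS: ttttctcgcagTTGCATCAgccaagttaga
CARS: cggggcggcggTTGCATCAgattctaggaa
IARS: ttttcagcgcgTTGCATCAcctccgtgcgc
MARS: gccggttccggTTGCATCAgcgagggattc
NARS: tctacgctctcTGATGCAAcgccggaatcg
TARS: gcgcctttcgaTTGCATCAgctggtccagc
YARS2: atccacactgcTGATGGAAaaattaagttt
These stretches lie at chr16:70289675-70289704 (minus strand, AARS), chr11:3057407-3057436 (minus, CARS), chr9:92293692-92293721 (minus, IARS), chr12:57488053-57488082 (plus, MARS), chr18:57621804-57621833 (minus, NARS), chr5:33440956-33440985 (plus, TARS) and chr12:32756076-32756105 (minus, YARS2). The first base of the element was between 13 bases before and 14 bases after the gene start in CARS, IARS, MARS, NARS and TARS, and 187 and 197 bases before it in AARS and YARS2. The 6 cytosolic genes share the sequence TTGCATCA or its reverse complement TGATGCAA, whereas the mitochondrial gene YARS2 has TGATGGAA. A match describes letters in the window and does not show that a factor binds there.

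The synthetase genes moved modestly and in both directions. Of the 40 members, 10 rose, 15 fell and 15 did not pass edgeR's quasi-likelihood test at a Benjamini-Hochberg adjusted p under 0.05, which is 62.5% changed. Over all 14919 genes tested 71.1% changed, 36.2% higher and 34.8% lower. The median log2 fold change of the members was -0.03 against 0.02 over all genes, and the median of its absolute size was 0.19 against 0.38. No member changed 2-fold, a size that 15.8% of all genes passed, and 3 members, LARS2, FARS2 and YARS, changed at least 1.5-fold, as did 32.7% of all genes. The libraries of the groups did not overlap for 26 members, beside 73.4% of all genes. The split depends on scaling: with library totals alone 17 members were higher and 10 lower, and with upper-quartile scaling 12 and 10, because these scalings moved the median of all genes from 0.02 to 0.12 and 0.08. Calls for small changes are read with that shift in mind.

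**Figure D1:**
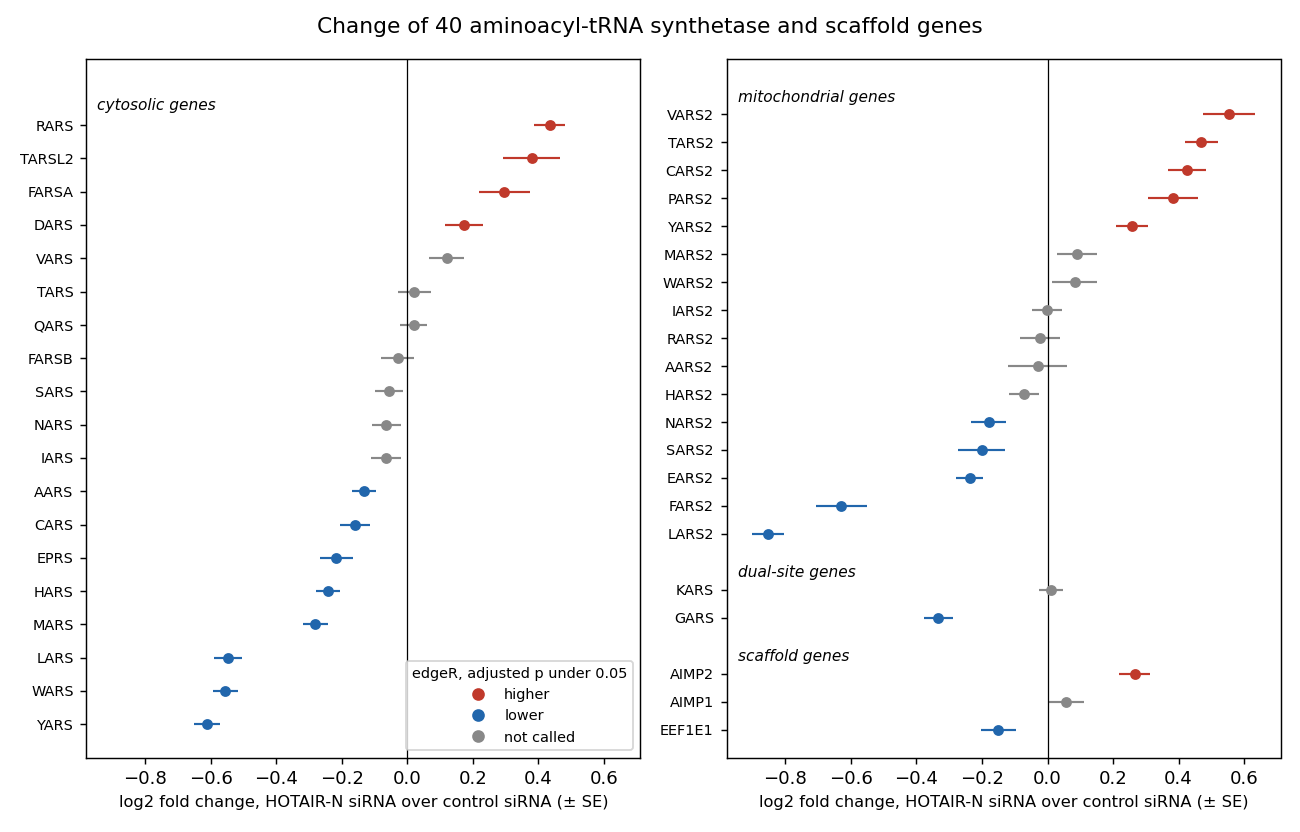
Log2 fold change (HOTAIR-N siRNA over control siRNA, points) with its standard error (bars) for each of the 40 members, grouped by class. Red genes were called higher, blue genes lower and grey genes were not called; the range runs from -0.85 for LARS2 to 0.55 for VARS2.

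WARS was among the genes that fell. It charges tRNA with tryptophan in the cytosol. Its level was 225, 224 and 222 CPM in replicates 1, 2 and 3 of the control siRNA, and 154, 152 and 151 CPM in those of the HOTAIR-N siRNA. The groups were far apart, with a spread of 1.54 and 1.51 CPM (SD, n = 3) within them. The level with the HOTAIR-N siRNA was 68.1% of control (log2 fold change -0.55 ± 0.04 SE, edgeR adjusted p = 7.5e-08). WARS was lower under every alternative run, between -0.57 and -0.46 on the log2 scale across them. Its exons overlap those of WDR25 on the opposite strand by 287 bases in GENCODE 29, and whether reads were counted by strand was not given in the sources used here. WDR25 itself was at 7.25 ± 0.190 CPM with the control siRNA and 4.83 ± 0.489 CPM with the HOTAIR-N siRNA (SD, n = 3).

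The fall of WARS stood beside a rise of the other interferon-responsive genes listed. Of 8 such genes 7 could be tested, and all 7 rose (median log2 fold change 2.31), beside 36.2% of all genes tested. The list was chosen with earlier results of these data known. IFIT3 rose 20.6-fold and the GTPase gene GBP1 18.5-fold. UBE2L6, which conjugates the ubiquitin-like protein ISG15, rose 4.97-fold and the immunoproteasome subunit gene PSMB9 5.37-fold. IRF1, a factor that binds interferon-responsive promoters, rose 2.8-fold. IDO1, which degrades tryptophan, was too low to be tested, at no more than 0.243 CPM in any library. Replicate 3 was the lowest of the HOTAIR-N siRNA libraries for each of the 7 tested genes, while its WARS level lay within 3 CPM of the others. The 300-base promoter window of WARS held neither the interferon-stimulated response element (GAAA, any 2 bases, GAAA) nor the gamma-activated site TTCNNNGAA, searched on both strands. These were found in 1 and 4 of the 33 member windows (EARS2, and CARS, TARS, PARS2 and WARS2) and in 3.57% and 7.66% of all windows. Only 1 start per member was searched, so any other start of a WARS transcript was not covered.

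Of the 4 tested transcripts of WARS, 2 fell and 2 were not called. NM_173701, which carried most of the gene, went from 6303 ± 206 to 4507 ± 226 expected counts (SD, n = 3), a log2 fold change of -0.47 ± 0.02 (SE, edgeR adjusted p = 0.00012). NM_213645 was at 917, 772 and 819 counts in the control libraries and 365, 198 and 272 counts in the HOTAIR-N siRNA libraries. All HOTAIR-N siRNA libraries lay below all control libraries, and the log2 fold change was -1.58 ± 0.20 (SE, edgeR adjusted p = 0.0023), in a test that called 32% of all transcripts. Its share of the gene was 12.2, 11.0 and 11.3 percent in the control libraries and 7.01, 4.28 and 5.61 percent with the HOTAIR-N siRNA. On the log2 scale that share differed by -1.06 (SE 0.19; limma adjusted p = 0.035), and the share of NM_173701 rose from 81.0% to 85.9% (limma adjusted p = 0.019). The share call of NM_173701 was lost in 5 of the 6 fits that left out 1 library (limma adjusted p up to 0.070), all but the one without HOTAIR-N siRNA replicate 1. NM_004184 (553 ± 52.1 and 435 ± 33.5 counts, edgeR adjusted p = 0.072) and NM_213646 (72.2 ± 4.35 and 47.6 ± 19.6 counts, adjusted p = 0.28) did not pass. NM_213645 and NM_213646 encode a protein of 430 residues and the other transcripts the full one of 471 residues in GENCODE 29, the shorter form lacking the start of the protein. The shift of NM_213645 was lost in 4 of the 6 fits that left out 1 library (control siRNA replicate 1, 2 or 3 or HOTAIR-N siRNA replicate 3, limma adjusted p = 0.098 to 0.11), and with HOTAIR-N siRNA replicate 3 and control siRNA replicate 2 both left out it was -1.11 (limma adjusted p = 0.22).

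**Figure D2:**
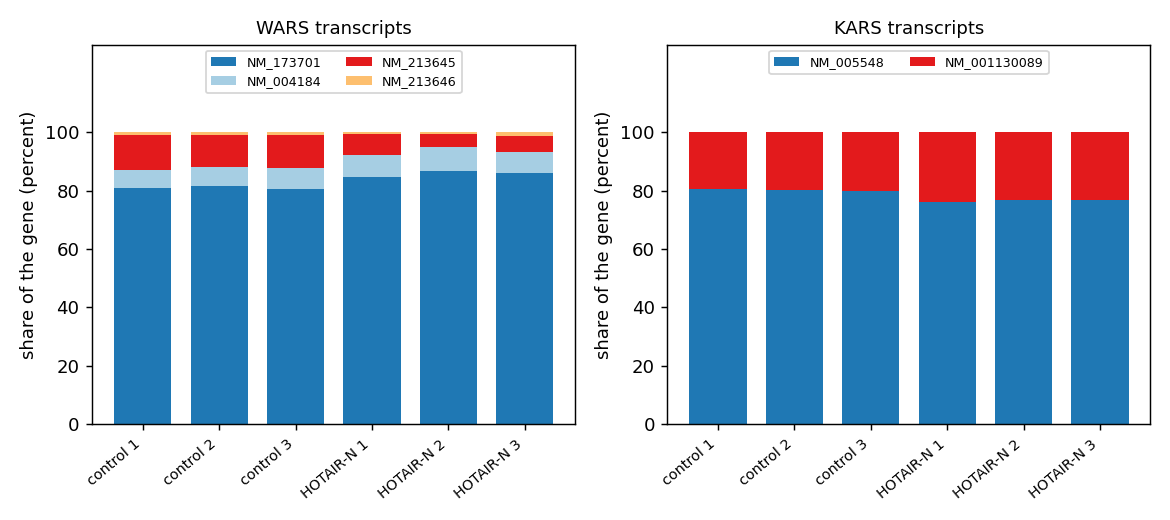
Share of each gene's transcripts in percent (stacked bars) in each of the 6 libraries, for WARS on the left and KARS on the right. The red segment of WARS, NM_213645, spans 11.0 to 12.2 percent with the control siRNA and 4.28 to 7.01 percent with the HOTAIR-N siRNA, and the red segment of KARS, NM_001130089, widens from 19.4 to 20.1 percent to 23.1 to 23.9 percent.

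Apart from WARS, 4 of the 18 cytosolic genes rose, 7 fell and 7 were not called, with a median log2 fold change of -0.06. The share changed was 61.1%, beside 71.1% of all genes tested (36.2% higher and 34.8% lower). YARS, the tyrosyl enzyme, was at 176, 179 and 179 CPM in the control libraries and 116, 114 and 119 CPM with the HOTAIR-N siRNA. It fell to 65.5% of control (log2 fold change -0.61 ± 0.04 SE, edgeR adjusted p = 5.5e-08) with no overlap between the groups. LARS charges tRNA with leucine and has been described as a leucine sensor for the growth regulator mTORC1. Its level was 492, 536 and 507 CPM with the control siRNA and 351, 340 and 361 CPM with the HOTAIR-N siRNA, a fall to 68.5% (log2 fold change -0.55 ± 0.04 SE, edgeR adjusted p = 2.2e-07). MARS provides the methionine that starts every cytosolic protein and also serves elongation. It went from 353, 345 and 359 CPM to 295, 292 and 283 CPM, or 82.3% of control (edgeR adjusted p = 3e-05). HARS, the histidyl enzyme, went from 193, 195 and 195 CPM to 165, 164 and 164 CPM, or 84.6% (adjusted p = 0.00011). In both genes every HOTAIR-N siRNA library was below every control library. EPRS (86.0% of control), CARS (89.5%) and AARS (91.3%) fell by less. The calls of CARS and AARS were lost with library totals alone (log2 fold changes -0.06 and -0.03) and with upper-quartile scaling (-0.10 and -0.07).

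The cytosolic genes that rose were led by RARS, the arginyl enzyme. It was at 205, 227 and 208 CPM in the control libraries and 288, 278 and 299 CPM with the HOTAIR-N siRNA, 1.35-fold higher (log2 fold change 0.43 ± 0.05 SE, edgeR adjusted p = 5.5e-06). The groups did not overlap. TARSL2, a threonyl enzyme gene similar to TARS, was low in every library and rose 1.3-fold from 5.97, 5.57 and 5.99 CPM to 7.96, 7.18 and 7.65 CPM (edgeR adjusted p = 0.0018). The similarity of TARSL2 to TARS could lead reads to be shared between them. FARSA and FARSB encode the alpha and the beta subunit of the phenylalanyl enzyme. FARSA rose 1.23-fold, from 111, 93.4 and 115 CPM to 135, 139 and 119 CPM (edgeR adjusted p = 0.0045), with the lowest HOTAIR-N siRNA library just above the highest control library. FARSB was at 82.3, 89.5 and 83.6 CPM and 84.1, 80.6 and 85.6 CPM, with overlapping groups (adjusted p = 0.62). The difference between the subunits was not tested. DARS, the aspartyl enzyme, rose 1.13-fold (adjusted p = 0.018), from 92.2, 101 and 94.2 CPM to 109, 99.9 and 114 CPM. It was the 1 called member whose groups overlapped, and its call was lost in 4 of the 6 fits that left out 1 library (control siRNA replicate 1 or 3 or HOTAIR-N siRNA replicate 1 or 3, adjusted p = 0.058 to 0.088).

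Of the cytosolic genes 7 were not called. IARS, NARS, SARS, FARSB, QARS and TARS lay between -0.07 and 0.02 on the log2 scale. VARS was at 0.12 (adjusted p = 0.062) with groups that did not overlap. QARS makes glutaminyl-tRNA in the cytosol, whereas mitochondria form theirs by converting a misacylated tRNA. It was at 292, 279 and 300 CPM with the control siRNA and 299, 294 and 289 CPM with the HOTAIR-N siRNA, and the groups overlapped.

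**Figure D3:**
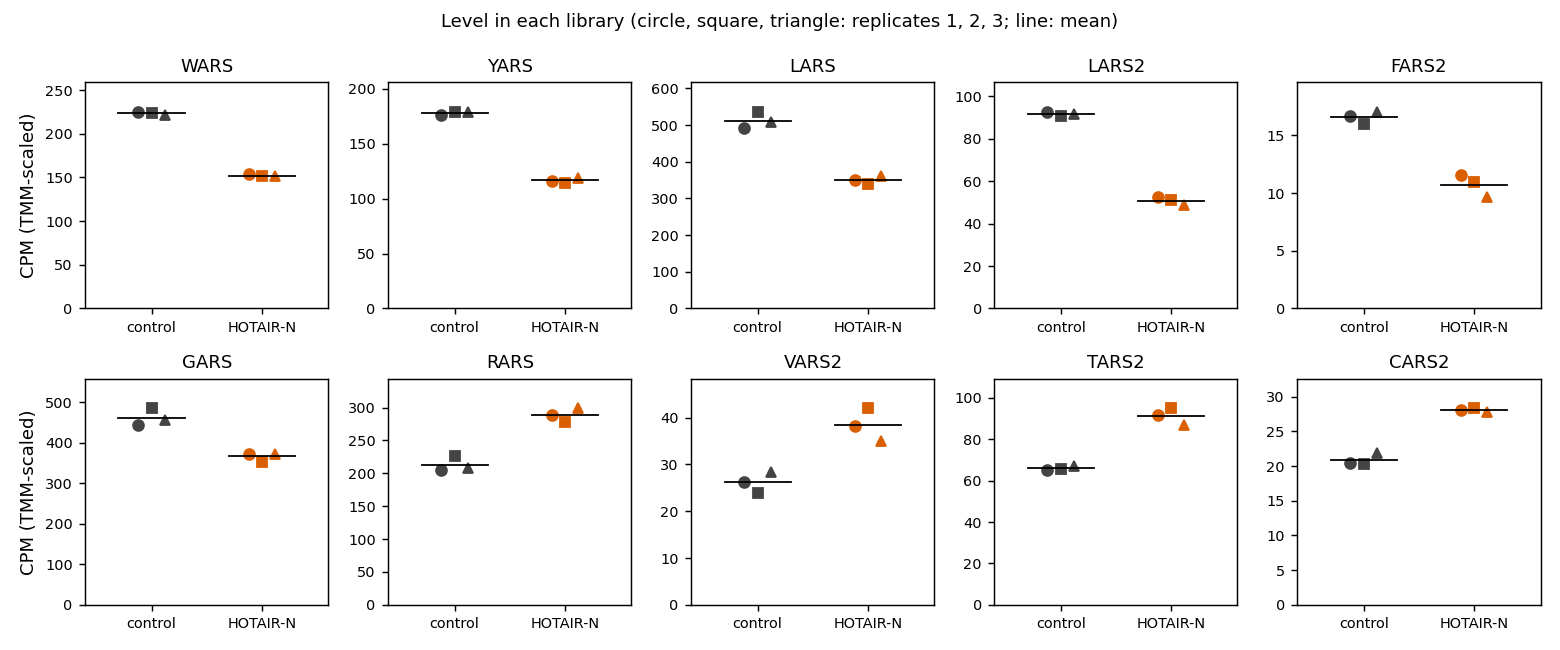
Level in TMM-scaled CPM (vertical axes, from 0) of 10 members in each library, with replicates 1, 2 and 3 as circle, square and triangle and the group mean as a line. In the 6 genes that fell every HOTAIR-N siRNA library lies below every control library, and in RARS, VARS2, TARS2 and CARS2 every one lies above.

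Of the 16 mitochondrial enzymes 5 rose, 5 fell and 6 were not called, with a median log2 fold change of -0.01. The share changed was 62.5%, beside 71.1% of all genes tested (36.2% higher and 34.8% lower). With library totals alone the counts were 7 higher and 3 lower, and with upper-quartile scaling 6 and 3. They held the extremes of the set in both directions. LARS2, the mitochondrial leucyl enzyme, was at 92.7, 90.7 and 91.6 CPM in the control libraries and 52.4, 51.2 and 48.6 CPM with the HOTAIR-N siRNA. It fell to 55.3% of control (log2 fold change -0.85 ± 0.05 SE, edgeR adjusted p = 1.4e-08). FARS2, the phenylalanyl enzyme of mitochondria, went from 16.7, 16.0 and 17.0 CPM to 11.6, 11.0 and 9.62 CPM, or 64.7% (log2 fold change -0.63 ± 0.08 SE, adjusted p = 1.5e-05). Neither gene had overlapping groups. EARS2, which attaches glutamate, went from 125, 122 and 122 CPM to 105, 103 and 105 CPM, or 84.8% (adjusted p = 0.00027). SARS2, the seryl enzyme, was at 22.4, 19.8 and 23.0 CPM and 19.6, 19.4 and 17.8 CPM (87.0% of control, adjusted p = 0.026). The SARS2 groups were separated by less than 1 CPM, and the call was lost without control siRNA replicate 1 or 3 or HOTAIR-N siRNA replicate 3 (adjusted p = 0.080 to 0.097). SARS2 also shares 1492 exonic bases with AC011455.2 on the same strand and 349 with MRPS12 on the opposite strand in GENCODE 29, so its counts are uncertain. NARS2, the asparaginyl enzyme, fell to 88.3%. With library totals alone neither SARS2 nor NARS2 was called (log2 fold changes -0.10 and -0.08).

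Among the mitochondrial genes that rose, VARS2, the valyl enzyme, was at 26.2, 23.9 and 28.4 CPM with the control siRNA and 38.2, 42.0 and 35.1 CPM with the HOTAIR-N siRNA. It rose 1.47-fold (log2 fold change 0.55 ± 0.08 SE, edgeR adjusted p = 5.1e-05), and it shares 1858 exonic bases with GTF2H4 on the same strand in GENCODE 29, so that its counts are uncertain. TARS2, the threonyl enzyme, rose 1.38-fold from 65.1, 65.5 and 67.1 CPM to 91.7, 94.9 and 87.1 CPM (log2 fold change 0.47 ± 0.05 SE, adjusted p = 3.5e-06). CARS2, the cysteinyl enzyme, rose 1.34-fold from 20.5, 20.2 and 21.9 CPM to 28.05, 28.3 and 27.7 CPM (log2 fold change 0.43 ± 0.06 SE, adjusted p = 3.2e-05). All HOTAIR-N siRNA libraries exceeded all control libraries in these 3 genes. PARS2, the prolyl enzyme and the lowest of the mitochondrial genes, rose 1.3-fold from 8.15, 8.04 and 8.74 CPM to 11.2, 11.1 and 10.2 CPM (adjusted p = 0.00073). YARS2, the tyrosyl enzyme, rose 1.19-fold (adjusted p = 0.00053). HARS2, AARS2, RARS2, IARS2, WARS2 and MARS2 were not called, with log2 fold changes between -0.07 and 0.09.

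Levels that account for transcript length, in TPM, placed the cytosolic genes above their mitochondrial counterparts. With the control siRNA the median was 154 TPM over the 19 cytosolic and 26.4 TPM over the 16 mitochondrial genes. The cytosolic gene had the higher mean TPM for 15 of 16 amino acids that have a gene of each kind in the set, by up to 37.3 times for proline (EPRS over PARS2). TARS and FARSA stood for threonine and phenylalanine there, and TARSL2 and FARSB were left out. EPRS joins both glutamate and proline to their tRNAs and so stands against both EARS2 and PARS2. Isoleucine was the exception, with IARS at 154 ± 7.41 TPM and IARS2 at 302 ± 13.7 TPM (SD, n = 3). The highest levels of the set were those of the shared genes GARS at 375 ± 16.6 TPM and KARS at 334 ± 2.76 TPM, followed by IARS2, and the lowest was TARSL2 at 3.43 ± 0.142 TPM. AARS, EPRS and MARS came next at 259 ± 3.62, 257 ± 15.3 and 236 ± 4.81 TPM, and the ranges of AARS and EPRS overlapped. Summed over the class, cytosolic genes were at 2829, 2880 and 2831 TPM in the control libraries and 2713, 2673 and 2735 TPM with the HOTAIR-N siRNA. The mitochondrial sums overlapped between the groups, at 745, 772 and 755 TPM and 767, 764 and 786 TPM.

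**Figure D4:**
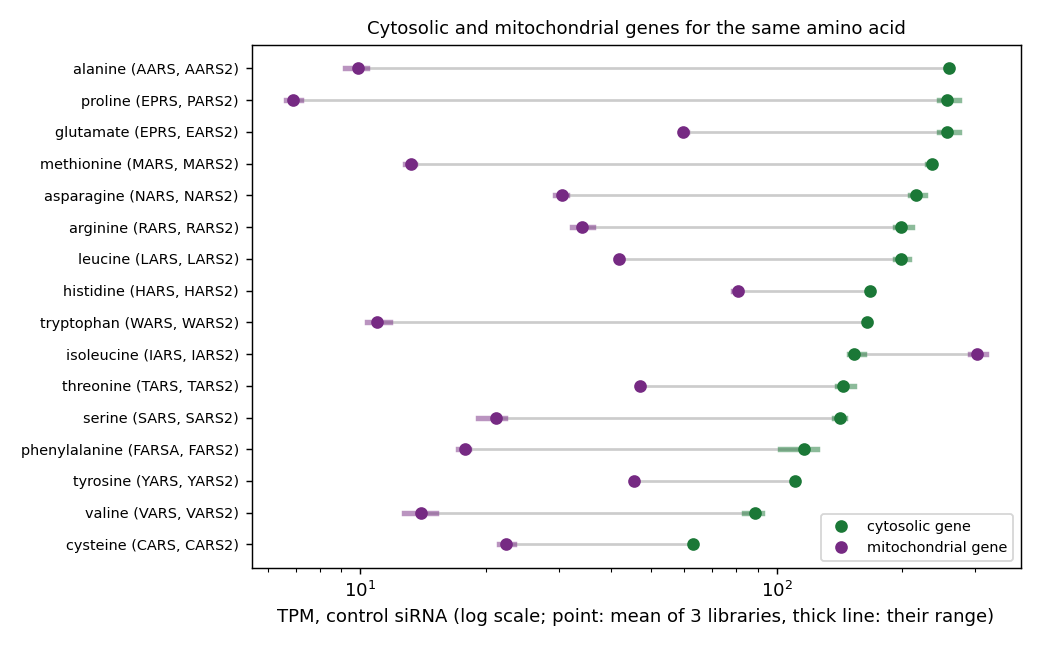
Mean TPM with the control siRNA (log axis) of the cytosolic gene (green) and the mitochondrial gene (purple) for 16 amino acids, with thick lines for the range of 3 libraries. The cytosolic gene is higher in 15 rows and the mitochondrial gene in 1, isoleucine.

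Calls were compared between the genes for the same amino acid. In 3 of the 16 pairings the cytosolic gene fell and the mitochondrial gene rose (CARS and CARS2, YARS and YARS2, EPRS and PARS2), and in 1 the reverse was seen (FARSA and FARS2). Both fell in 2 pairings (LARS and LARS2, EPRS and EARS2), and none had both genes higher. These pairings took TARS for threonine and FARSA for phenylalanine. TARSL2, left out of them, rose as TARS2 did, and FARSB, also left out, was not called while FARS2 fell. Leucine had the lowest pair, at -0.55 for LARS and -0.85 for LARS2 on the log2 scale. In 4 pairings only the cytosolic gene was called, and lower (AARS, HARS, MARS and WARS). In 1 only the cytosolic gene was called, and higher (RARS). In 2 only the mitochondrial gene was called higher (TARS2 and VARS2) and in 2 lower (NARS2 and SARS2). Neither isoleucine gene was called. CARS was not called with library totals alone or upper-quartile scaling, which leaves CARS and CARS2 out of the first group there. AARS, NARS2 and SARS2 also lost their calls under both scalings, so the groups that name them change there too. The differences within pairs were not tested.

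GARS and KARS each supply both compartments from 1 gene. GARS, the glycyl enzyme, was at 443, 485 and 457 CPM in the control libraries and 373, 354 and 373 CPM with the HOTAIR-N siRNA, and fell to 79.4% of control (log2 fold change -0.33 ± 0.04 SE, edgeR adjusted p = 2.2e-05). KARS, the lysyl enzyme, was at 337, 346 and 344 CPM and 346, 340 and 346 CPM, with overlapping groups and a log2 fold change of 0.01 (adjusted p = 0.81). Within KARS the transcripts shifted. NM_001130089, which encodes the mitochondrial form of 625 residues, made up 19.4, 19.7 and 20.1 percent of the gene in the control libraries and 23.9, 23.2 and 23.1 percent with the HOTAIR-N siRNA. The log2 share differed by 0.24 (SE 0.02, limma adjusted p = 0.0056), and the expected counts of that transcript rose from 2523 ± 63.8 to 2996 ± 227 (SD, n = 3; edgeR adjusted p = 0.0034). The share of NM_005548, the cytosolic form of 597 residues, was lower by 0.07 on the log2 scale (limma adjusted p = 0.0068). These shares kept their calls in all 6 fits that left out 1 library, and were not called with HOTAIR-N siRNA replicate 3 and control siRNA replicate 2 both left out (limma adjusted p = 0.092 and 0.099). KARS overlaps TERF2IP, which fell by 1.34 on the log2 scale, over 176 exonic bases on the opposite strand, and whether this touches the transcript shares was not tested.

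Over the set, 25 members had at least 2 tested transcripts and 4 of them had a transcript whose share changed, where 16.1% of all 7505 such genes did. That test recovered 27.5% of the genes given a 2-fold switch in simulated counts, so members that were not called may still differ. Of 78 member transcripts 6 changed in share, beside 7.42% of all transcripts. The tables list VARS and VARS2 transcripts in several numbered copies, and counting each transcript once leaves 24 members and 72 transcripts. Besides those of WARS and KARS, the changed shares were in EARS2 and EEF1E1. The noncoding EARS2 transcript NR_003501 went from 9.48, 10.7 and 8.53 percent of the gene to 16.9, 23.3 and 17.9 percent (log2 share 1.01 ± 0.15 SE, limma adjusted p = 0.023). NM_001135650 of EEF1E1, which encodes 139 residues in place of 174, went from 16.4, 13.8 and 15.9 percent to 35.1, 32.8 and 24.4 percent (log2 share 1.12 ± 0.20 SE, limma adjusted p = 0.033). The groups did not overlap in either case, but each call was lost in 5 of the 6 fits that left out 1 library. The exceptions were the fits without HOTAIR-N siRNA replicate 2 for EARS2 and replicate 3 for EEF1E1. The transcript usage test of edgeR (diffSpliceDGE) called 1 of the 25 members by its Simes p per gene, and 373 genes in all. That member was SARS2 (adjusted p = 0.027), whose transcript NM_001145901 had 0 counts in every control library and 34.0, 10.5 and 11.2 counts with the HOTAIR-N siRNA. WARS, EARS2, EEF1E1 and KARS were not called by it (adjusted p = 0.074, 0.055, 0.40 and 0.89), although NM_213645 of WARS passed on its own (diffSpliceDGE adjusted p = 0.048).

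Of the 3 scaffold genes 1 was called higher, 1 was called lower and 1 was not called. Over all genes tested 71.1% were called. Differences between the scaffold genes were not tested. AIMP2 holds the parts of the multisynthetase complex together. It rose 1.2-fold from 79.99, 76.5 and 82.2 CPM to 93.3, 97.8 and 96.0 CPM (log2 fold change 0.27 ± 0.05 SE, edgeR adjusted p = 0.00032). AIMP1, which also has a secreted cytokine form, was at 97.5, 107 and 96.4 CPM and 105, 98.9 and 109 CPM and was not called (adjusted p = 0.36). EEF1E1, also named AIMP3, went from 62.7, 67.3 and 62.7 CPM to 57.0, 56.0 and 60.6 CPM (90.1% of control, adjusted p = 0.024). The groups were separate for AIMP2 and EEF1E1. Per length EEF1E1 was level, at 139 ± 4.17 and 140 ± 2.55 TPM (SD, n = 3), and its call was lost without HOTAIR-N siRNA replicate 1 or 2 (adjusted p = 0.083 and 0.097). Exons that EEF1E1 shares with the EEF1E1-BLOC1S5 readthrough gene add to that uncertainty. In the complex as a whole 3 of 11 genes rose (RARS, DARS and AIMP2), 4 fell (LARS, MARS, EPRS and EEF1E1) and 4 were not called (IARS, KARS, QARS and AIMP1), with a median log2 fold change of 0.01. The share changed was 63.6%, beside 71.1% of all genes tested (36.2% higher and 34.8% lower).

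By regulation rather than place, 12 members are listed as synthetase genes that respond to ATF4. None of them rose, 8 fell (AARS, CARS, EPRS, GARS, LARS, MARS, WARS and YARS) and 4 were not called (IARS, NARS, SARS and TARS), with a median log2 fold change of -0.19. That is 66.7% changed. Over all genes tested 71.1% changed, 36.2% higher and 34.8% lower. The median of the absolute log2 fold change was 0.19 in the list against 0.38 over all genes. Without WARS the counts were 7 lower and 4 not called, with a median of -0.16. Of the other 9 cytosolic and shared genes, 4 rose and 1, HARS, fell, with a median of 0.12. With library totals alone the first group had 1 higher and 6 lower, and the second 7 higher and 1 lower. Of the 7 genes with the CEBP-ATF element printed above, AARS, CARS and MARS fell, IARS, NARS and TARS were not called and YARS2 rose. MARS overlaps DDIT3, itself a gene of the ATF4 pathway, over 355 exonic bases on the opposite strand, and ARHGAP9 over 519. The 2 structural classes of catalytic domain did not separate the genes, with 4 higher and 7 lower of 18 in class I and 5 higher and 6 lower of 18 in class II.

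Genes of the amino acid response outside the set were mostly lower. The 15 tested genes split into 10 that fell, 3 that rose and 2 that were not called, with a median log2 fold change of -0.35, and 10 were lower under each other scaling. Among all genes tested 34.8% fell and 36.2% rose. ATF4 itself went from 283, 251 and 272 CPM to 207, 204 and 184 CPM, or 73.7% of control. PHGDH and PSAT1, which encode the first enzymes of serine synthesis, fell to 38.3% and 58.3%, and the asparagine synthetase gene ASNS to 53.8%. The 3 genes that rose were IMPACT, an inhibitor of the kinase GCN2 (1.97-fold), SESN2 (1.26-fold) and TRIB3 (1.25-fold). EIF2AK4, which encodes GCN2 and senses uncharged tRNA, was at 124 ± 4.38 and 126 ± 0.507 CPM (SD, n = 3) and was not called (adjusted p = 0.58).

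Upstream of the synthetases, 12 of 21 tested genes for tRNA maturation and export fell, 5 rose and 4 were not called, with a median log2 fold change of -0.20. That is 81.0% changed, beside 71.1% of all genes tested, where 36.2% were higher and 34.8% lower. RTCB, the ligase that joins the exons of a spliced tRNA, fell to 62.0% of control, and the ribonuclease P subunit genes POP4 and RPP30 to 63.8% and 65.9%. XPOT, the exporter of tRNA from the nucleus, fell from 415, 462 and 423 CPM to 308, 305 and 331 CPM, or 72.6%. With library totals alone the counts were 8 lower and 7 higher. Downstream, 4 of 7 genes that deliver charged tRNA to ribosomes rose and 1 fell, or 71.4% changed, near the share of all genes. EEF1A2 rose 1.5-fold, and the mitochondrial factors TSFM and TUFM rose 1.3-fold and 1.19-fold. EEF1D, a subunit of the exchange factor, fell to 78.2%.

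Of 9 genes for the conversion or proofreading of charged tRNA, 5 rose, 3 fell and 1 was not called. That is 88.9% changed, beside 71.1% of all genes tested (36.2% higher and 34.8% lower). SEPSECS, the last enzyme of selenocysteine synthesis on its tRNA, rose 1.52-fold, and the alanyl-tRNA editing gene AARSD1 1.4-fold. DTD1, which removes D-amino acids from tRNA, fell to 69.2% of control. The amidotransferase that makes mitochondrial glutaminyl-tRNA in place of a synthetase has 3 subunits, and these differed in direction. GATC fell to 73.3% and GATB to 79.5% of control, whereas QRSL1 rose 1.18-fold (edgeR adjusted p = 7.6e-06, 0.00059 and 0.0022).

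**Figure D5:**
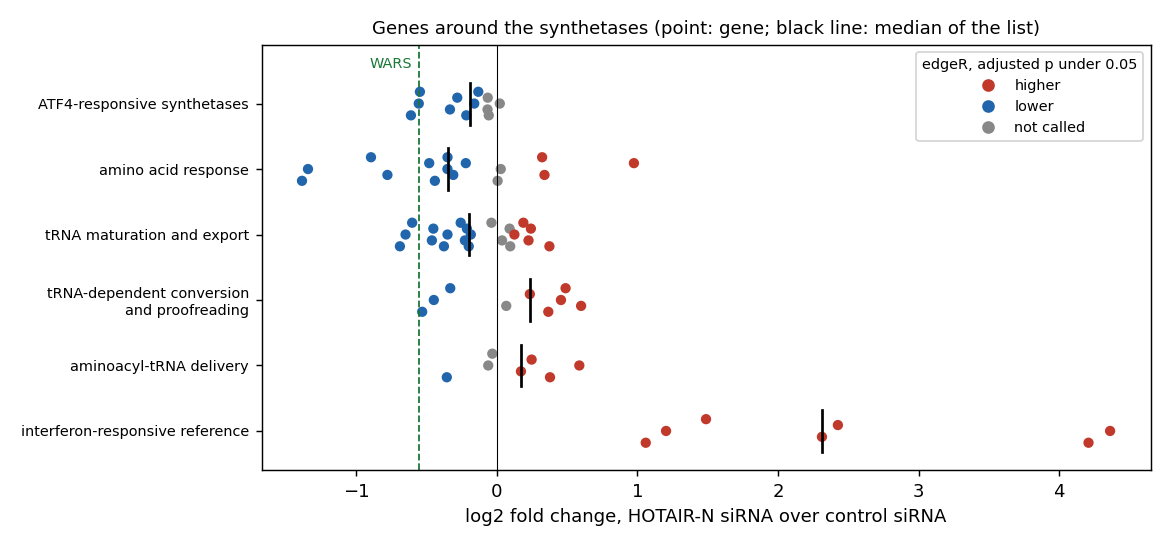
Log2 fold change (HOTAIR-N siRNA over control siRNA) of each tested gene (points, red higher, blue lower, grey not called) in 6 lists, with the list's median as a black line and WARS as a dashed line. The medians are -0.19 for the ATF4-responsive synthetases, -0.35 for the amino acid response and 2.31 for the interferon-responsive genes, and each of the 7 tested interferon-responsive genes lies to the right of WARS.

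Several members start beside a gene on the other strand. In RefSeq 11 of the 33 members found there have such a start within 1000 bases, and the share over all genes was not computed. The neighbours of FARSB and TARS have no values here. WDR25, whose start is 158 bases from that of WARS, fell as WARS did (log2 fold changes -0.58 and -0.55). LYRM4, 57 bases from FARS2, and UBFD1, 377 bases from EARS2, were lower with their neighbours (-0.38 and -0.26), and PMS2, 166 bases from AIMP2, rose with it (0.25). Of all genes tested, 34.8% fell and 36.2% rose. Exons of WARS and WDR25 overlap by 287 bases and those of EARS2 and UBFD1 by 370, on opposite strands. Whether reads were counted by strand is unknown, so the separate values of these genes are uncertain. Other pairs differed: TERF2IP, 108 bases from KARS, was at -1.34 beside 0.01 for KARS, and ORC3, 148 bases from RARS2, at -0.46 beside -0.02. MRPS12, 181 bases from SARS2, was at -0.12 beside -0.20 for SARS2 and was not called (edgeR adjusted p = 0.12). HARS and HARS2 face each other over 85 bases and share 437 overlapping exonic bases on opposite strands, and their log2 fold changes were -0.24 and -0.07. Similar sequence and this overlap leave their separate values uncertain. Among other members, exons of YARS, AIMP2 and CARS2 overlap opposite-strand exons of S100PBP (396 bases), EIF2AK1 (532 bases) and ING1 (326 bases). Their values carry the same uncertainty about counting by strand.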

How the data were processed

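Per the submitters' processing notes, STAR 2.6.0c, RSEM 1.3.0 and hg19 were used; the labels' protocols describe stranded total RNA libraries depleted of ribosomal RNA. Per the file headers, the deposited tables hold RSEM expected counts and TPM per gene and transcript, and each transcript's share of its gene as a percent (0 to 100).

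Expected counts were rounded, filtered with filterByExpr (minimum count 10, minimum total 15), scaled by TMM and tested with edgeR 4.0.16 (R 4.3.3) quasi-likelihood, HOTAIR-N siRNA over control siRNA, over all 14919 genes; calls used a Benjamini-Hochberg adjusted p under 0.05. P-values printed without another tool's name are edgeR's. CPM are TMM-scaled. Transcripts were tested the same way. Transcript shares were tested with limma 3.58.1 on log2((transcript count + 1)/(gene count + 1)) for transcripts with 10 counts in at least 3 libraries, with moderated variances that follow mean count. TPM compare levels between genes.

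The steps were tested on simulated counts. The gene test recovered 38% of planted 1.2-fold changes and 88% of planted 1.5-fold changes, with 16 false calls. Changes were planted in a small part of the genes, whereas 71.1% of genes were called in the data. These rates of recovery and of false calls therefore need not hold for the data. The share test recovered 27.5% of genes with a planted 2-fold switch, with 4 false calls. A gene or share that was not called is therefore not shown to be unchanged. Alternatives were other scalings, DESeq2 1.42.0, limma-voom, other filters and pseudocounts, a replicate block, a 1.2-fold null and libraries left out. Members and lists were chosen with earlier results of these data known. Named with values are WARS, up to 4 rises and 4 falls per class, shared, scaffold, PARS2, QARS and uncalled genes, and up to 4 genes of smallest p in other lists. ATF4, IRF1, IDO1, EIF2AK4, SESN2, TRIB3, GATB, QRSL1 and the neighbouring genes were added after their values were seen. Promoters are from RefSeq (GRCh38.p14); no hg19 sequence was used. DARS, LARS, TARSL2, VARS, YARS, AARS2 and VARS2 were not matched there.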

Additional observations from a re-analysis of the deposited data

How the results depend on the processing

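With DESeq2 size factors, DESeq2, limma-voom, no filter or a filter of 1 CPM in 3 libraries, the count of members stood at 10 higher and 15 lower. Library totals alone gave 7 cytosolic members higher, 3 mitochondrial lower, 1 shared gene higher and 2 scaffold higher with 0 lower. Upper-quartile scaling gave 3 mitochondrial and 0 scaffold genes lower. AARS, CARS, EEF1E1, NARS2 and SARS2 lost their calls under both scalings. Against a 1.2-fold change 6876 genes were called, with 1 cytosolic member higher and 3 lower, 2 mitochondrial lower and scaffold counts of 0 and 0.

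Of members that were not called, several changed sign near 0. With library totals alone FARSB was at 0.070, IARS 0.033, NARS 0.034, SARS 0.041, AARS2 0.068, HARS2 0.027, IARS2 0.097 and RARS2 0.076, and with upper-quartile scaling FARSB 0.029, AARS2 0.027, IARS2 0.056 and RARS2 0.035. KARS was at -0.0014 with DESeq2 size factors and with DESeq2, and at -0.0092 without a filter, where QARS was at -5.9e-05. IARS2 was at 0.0041 with the filter of 1 CPM. With HOTAIR-N siRNA replicate 3 and control siRNA replicate 2 both left out, 10 members were higher and 18 lower, 0 had a changed transcript share, the WARS share was -1.11, and QARS was at -0.014, AARS2 0.0036, RARS2 0.0054 and KARS -0.0041.

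Leaving out 1 library at a time gave 9906 to 10727 changed genes, 3 to 4 cytosolic members higher and 8 to 8 lower, 5 to 5 mitochondrial higher and 4 to 5 lower, 0 to 1 scaffold lower, 1 to 3 members with a changed share, and a WARS NM_213645 share of -1.23 to -0.88. The log2 fold change spanned -0.058 to 0.0022 for FARSB, -0.015 to 0.037 for QARS, -0.012 to 0.063 for TARS, -0.12 to 0.063 for AARS2, -0.047 to 0.031 for IARS2, -0.068 to 0.024 for RARS2 and -0.0064 to 0.021 for KARS.

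Replicate numbers did not pair the libraries (r = -0.04, -0.21 and -0.12 between the same numbers). With the number as a replicate block 10010 genes changed, 0 scaffold genes were lower, 0 members had a changed share (edgeR's diffSpliceDGE, without the block, called 1, SARS2), and the WARS NM_213645 share was -1.06 (limma adjusted p = 0.094). The causes of these differences were not tested. With 3 libraries a group, p-values measure the spread between transfections of 1 line, and transcript shares rest on RSEM's split of reads that fit several transcripts.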
